A study of Mus musculus with 8 samples.

Results

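The genes described here are 10 members of the epidermal growth factor (EGF) family in mouse 4T1 tumors, namely the ligand genes Ereg, Areg, Hbegf, Epgn, Btc, Tgfa and Egf and the receptor genes Egfr, Erbb2 and Erbb3. They were found by matching Ensembl identifiers to mouse symbols, which gave 10 of the 25006 identifiers counted in every library, and all 10 passed the filter on low counts. Ereg was the reason for choosing the family, and it was chosen by its lower level in CD95 knockout than in wild-type tumors of Balb/c mice. Since the rule also set all 4 groups side by side, every contrast of Ereg is given as a description without a test.

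The 4T1 line comes from a mammary carcinoma of a Balb/c mouse and models triple-negative breast cancer. Cells were placed in the mammary fat pad, tumors were removed within 20 days, and total RNA was sequenced to ask how CD95 on tumor cells, the death receptor encoded by Fas, relates to gene expression and immune infiltration. NSG hosts lack mature T, B and natural killer cells, and Balb/c hosts have an intact immune system. Each host received 4 lines, so that 4 groups of 2 libraries were formed.

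The NSG wild-type group and the Balb/c wild-type group each consisted of parental 4T1 and of 4T1 stably expressing vCas9. The NSG knockout group and the Balb/c knockout group each consisted of CRISPR/Cas9 clones 54 and 69, both labelled CD95 knockout. All groups share the 4T1 background, the injection site and the collection limit. Each knockout line is 1 clone, which the labels do not say of either wild-type line, so clonality and CD95 status cannot be told apart. The labels do not say whether a library came from 1 tumor or from several, nor the age of the mice, and p-values measure the spread between these lines and libraries only.

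Libraries held 8.68 to 19.7 M counts, so that 3 counts corresponded to 0.159 to 0.321 CPM, the usual unit of reads scaled to library size. Fas RNA was read in all 8 libraries, at 33.9 and 22.6 CPM in NSG wild type, 29.5 and 12.9 CPM in NSG knockout, 51.6 and 46.9 CPM in Balb/c wild type, and 27.1 and 33.7 CPM in Balb/c knockout. An edited gene can still be transcribed, so this RNA level does not check a small edit, and knockout and wild type below are the labels of the lines. The 2 knockout clones stood further apart in Balb/c than any other pair of libraries in a group, with a correlation across genes of 0.956 against 0.971 to 0.984 in the other groups. The log2 difference between clones 54 and 69 in NSG was negatively correlated with that in Balb/c, at -0.35 across 15310 genes, which are not independent. Whether the 2 clone labels were exchanged in 1 host was not tested. Values printed by clone follow the labels, and group means do not depend on which clone is which. The 10 epithelial marker genes, taken here as markers of the tumor cells, were read in every library, among them Epcam at 45.2 to 416 CPM and Krt8 at 156 to 1280 CPM. Whether these reads came from tumor cells alone was not tested.

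EGF family ligands are made as membrane-bound precursors that proteases such as ADAM17 and ADAM10 release from the cell surface. They bind receptor tyrosine kinases of the ERBB family, which then pair with each other and activate the RAS to ERK, PI3-kinase and STAT3 routes. Amphiregulin, TGF-alpha, EGF and epigen act through EGFR, whereas epiregulin, betacellulin and HB-EGF can also act through ERBB4. ERBB2 binds no ligand of its own, and ERBB3 binds neuregulins and signals mainly through its partners. In mammary gland and breast cancer the family drives growth of epithelial cells, and several of its ligands are also made by inflammatory and stromal cells.

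Compared per kilobase of exon, Areg was the most abundant member in all 4 groups and Egf the least. Areg, which encodes amphiregulin, the main EGFR ligand of the pubertal mammary gland, reached 101 CPM per kb in NSG wild type, 82.9 in NSG knockout, 68.3 in Balb/c wild type and 131 in Balb/c knockout. Hbegf came next, at 20.0 to 33.8 CPM per kb. Ereg took the third place in both wild-type groups, at 15.4 CPM per kb in NSG and 14.4 in Balb/c, and was in the seventh place in NSG knockout (5.72 CPM per kb) and the sixth in Balb/c knockout (1.39). Among the receptors, Egfr had the highest level per kb in both wild-type groups and in NSG knockout, and Erbb3 had it in Balb/c knockout, where its libraries were far apart.

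Ereg encodes epiregulin, a ligand of EGFR and ERBB4 (ENSMUSG00000029377; GRCm38 chr5:91074622-91093646, plus strand, protein-coding). In NSG wild type its level was 68.6 CPM in the parental tumor and 58.7 CPM in the vCas9 tumor, and in NSG knockout it was 32.5 CPM in clone 54 and 14.7 CPM in clone 69. In Balb/c wild type it was 68.0 and 51.1 CPM, and in Balb/c knockout 5.82 and 5.69 CPM. All 4 knockout libraries lay below all 4 wild-type libraries, and the lowest values were those of the clones in Balb/c, where the fewest reads on the gene were 78. The plot of levels by library shows this separation beside the other members.

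**Figure D1:**
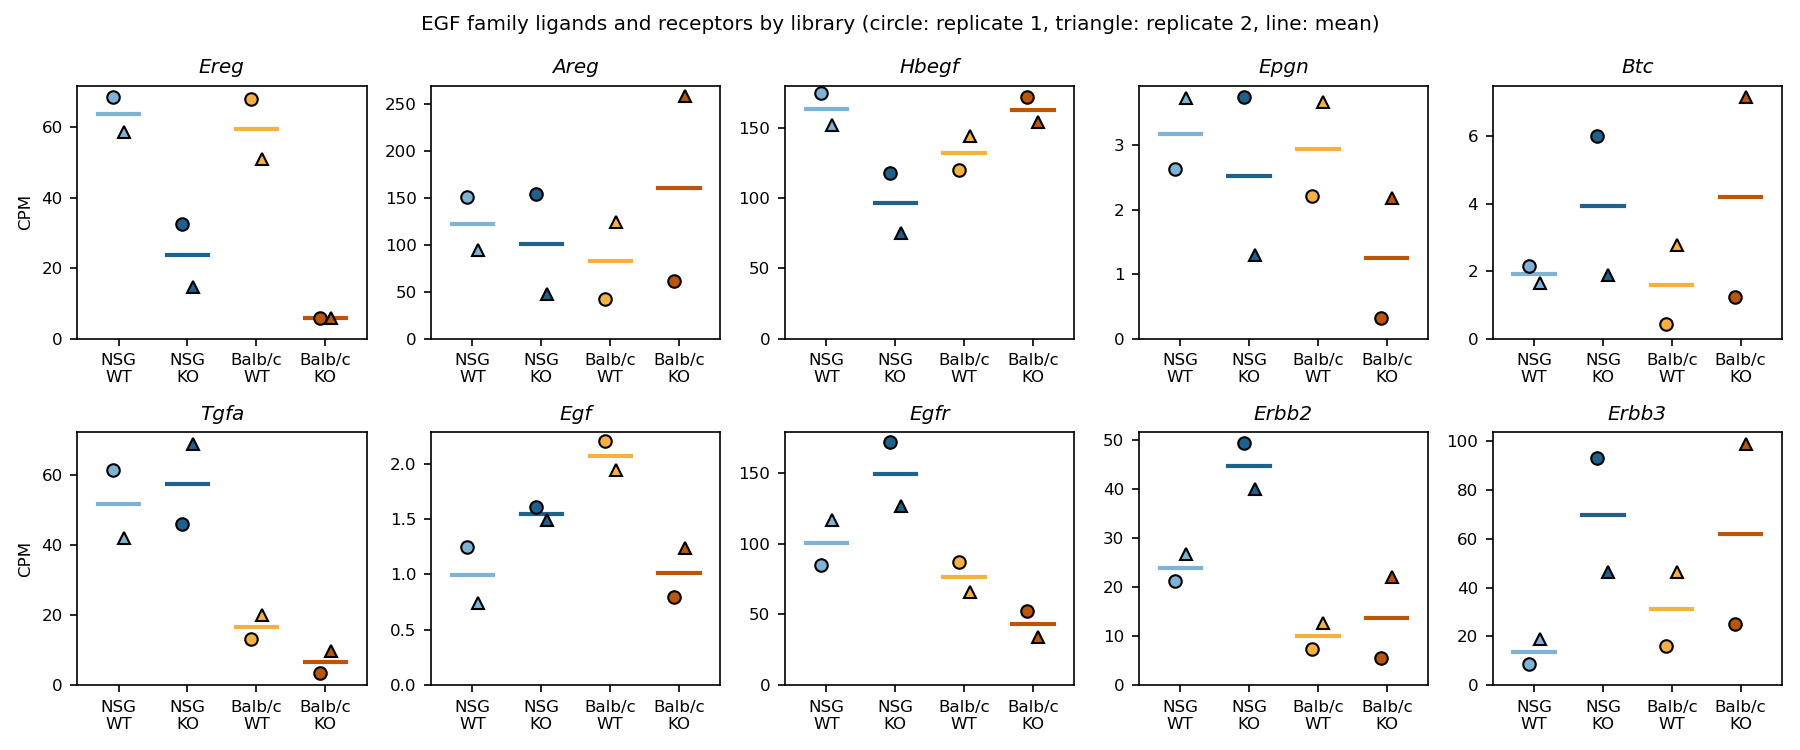
Level of each member in every library, in CPM on linear axes that start at 0, by host and CD95 label; circles are the parental line or clone 54, triangles the vCas9 line or clone 69, and lines the group means. Ereg falls from 63.7 to 23.6 CPM in NSG and from 59.5 to 5.75 CPM in Balb/c, whereas the libraries of one group are widely spread for Areg, Btc and Erbb3.

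In NSG tumors wild type averaged 63.7 ± 7.0 CPM and knockout 23.6 ± 12.6 CPM (SD, n = 2 each). The log2 fold change was -1.43 (SE 0.34) by edgeR's quasi-likelihood fit and -1.45 by DESeq2, and it ran from -2.12 to -0.97 when libraries were left out in turn. In Balb/c, the contrast by which it was chosen, wild type averaged 59.5 ± 11.9 CPM and knockout 5.75 ± 0.0916 CPM (SD, n = 2 each), a ratio of 10.3 and a log2 fold change of -3.37 (SE 0.37). The Balb/c log2 fold change minus the NSG one was -1.94 (SE 0.48). Wild-type tumors had like levels in the 2 hosts (log2 fold change -0.10, SE 0.33), while knockout tumors had 4.11 times more Ereg in NSG than in Balb/c (log2 fold change of Balb/c against NSG -2.03, SE 0.36). The latter value was -1.35 without the NSG clone 54 library and -2.50 without the NSG clone 69 library. In bulk tumors, fewer cells of a type and less RNA per cell cannot be told apart.

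No marker list had a sum lower in knockout without overlap in both hosts, as Ereg was. Several shared its direction in a single host. The summed neutrophil markers, among them S100a8 and S100a9, were 8390 and 6760 CPM in Balb/c wild type and 918 and 3080 CPM in Balb/c knockout, with 10 of 12 genes lower in knockout without overlap. In NSG the neutrophil sum was 1740 and 2410 CPM in wild type and 4290 and 2990 CPM in knockout, the reverse of Ereg. Only 4 of the 12 genes were higher in NSG knockout without overlap, and 1 was lower. Macrophage markers summed to 4300 and 4720 CPM in Balb/c wild type and 21300 and 8840 CPM in Balb/c knockout, with 11 of 12 genes higher. In NSG they were lower in knockout, as Ereg was, at 5060 and 5840 CPM in wild type against 3480 and 4110 CPM, with 10 of 12 genes lower. Endothelial markers were higher in Balb/c knockout for 10 of 10 genes (633 and 558 CPM against 209 and 311 CPM), and the epithelial sum did not separate the Balb/c groups (854 and 2170 CPM against 767 and 4340 CPM). B cell markers were lower in Balb/c knockout for 7 of 9 genes (54.5 and 33.9 CPM against 254 and 63.5 CPM). In NSG knockout the epithelial list (10 of 10 genes) and the fibroblast list (9 of 10) were higher, opposite to Ereg. Keratinocyte markers, whose cells can make EGF ligands in skin, summed to 30.8 to 58.0 CPM in NSG, 11.8 and 7.42 CPM in Balb/c wild type and 3.49 and 4.30 CPM in Balb/c knockout. The sum was lower in the latter, as Ereg was (2 of 8 genes lower, 1 higher). Sbsn alone gave 26.2 to 49.9 CPM in NSG, 9.6 and 5.68 CPM in Balb/c wild type and 1.69 and 2.48 CPM in Balb/c knockout. Krt1, Lor, Ivl, Flg, Dsg1a and Krtdap were at 0 in at least 1 library each. Also lower in Balb/c knockout was the sum of the proliferation list (425 and 276 CPM against 446 and 439 CPM, 2 of 10 genes lower). The mast cell and basophil sum was lower too (171 and 629 CPM against 1170 and 1170 CPM). Most of that sum was Hdc, at 91.6 and 533 CPM against 1110 and 1100 CPM. Hdc was the 1 of 10 genes that was lower, and 7 were higher, among them Cpa3 and Mcpt4. Between hosts, fibroblast markers were lower in Balb/c than in NSG knockout, as Ereg was, for 10 of 10 genes (11800 and 4250 against 34900 and 30500 CPM). So were proliferation markers, for 10 of 10 genes (425 and 276 against 737 and 1200 CPM). Macrophage markers (10 of 12 genes) and T cell markers (11 genes) were higher in that comparison. The part of these cells in the Ereg differences was not tested.

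Over the 8 libraries, the genes most like Ereg included Csf2, Flnc, Cxcl1 and Gfpt2. Likeness was the root mean square difference of log2 CPM after centring each gene on its own mean, computed for 4515 genes with enough expression and spread, and it was 0.392 for Csf2, 0.539 for Flnc, 0.612 for Cxcl1 and 0.631 for Gfpt2. Csf2, which encodes the myeloid growth factor GM-CSF, was at 19.8 and 35.3 CPM in NSG wild type, 11.4 and 6.07 CPM in NSG knockout, 17.5 and 14.1 CPM in Balb/c wild type and 2.38 and 2.55 CPM in Balb/c knockout. Cxcl1, a neutrophil-attracting chemokine, was at 1380 and 1260 CPM, 685 and 379 CPM, 759 and 573 CPM, and 236 and 192 CPM in the same groups. Both genes thus had every knockout library below every wild-type library of the same host, as Ereg did. The genes were picked by likeness over these same libraries, so the shared order is part of that choice. Flnc had this order too, whereas Gfpt2 overlapped in NSG, at 198 and 271 CPM in wild type and 246 and 114 CPM in knockout. Flnc encodes the actin crosslinker filamin C, and Gfpt2 an enzyme of hexosamine synthesis. No other EGF family member was among these genes, and the pair of members least alike was Ereg and Erbb3, at 2.271.

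Areg (chr5:91139599-91148432, plus strand) neighbours Ereg and yet had no common order with it. Its level was 151 and 93.8 CPM in NSG wild type, 154 and 47.3 CPM in NSG knockout, 42.0 and 124 CPM in Balb/c wild type and 61.4 and 258 CPM in Balb/c knockout. Groups overlapped in every comparison, and clone 54 was the highest library in NSG and clone 69 the highest in Balb/c. The knockout log2 fold change in NSG was -0.28 (SE 0.79), with a 95% interval wide enough to include no change, and the host changes were -0.56 in wild type and 0.66 in knockout, none of them called.

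Btc, which encodes betacellulin, was the member most like Areg, with a root mean square difference of 0.558. It was a minor transcript at 0.425 to 7.15 CPM, or 5 to 98 reads, and also peaked in clone 54 in NSG (5.99 CPM) and in clone 69 in Balb/c (7.15 CPM). In Balb/c the order parental, clone 54, vCas9, clone 69 was the same for Areg, Btc and Erbb3. The sequences upstream of Areg and Btc are shown because these nearby ligands had the most similar profile of all member pairs. Both are the 250 bases before the RefSeq transcription start in GRCm38.p6, at chr5:91139349-91139598 on the plus strand for Areg and chr5:91402995-91403244 on the minus strand for Btc, with matches to the searched motifs in capitals:
Areg: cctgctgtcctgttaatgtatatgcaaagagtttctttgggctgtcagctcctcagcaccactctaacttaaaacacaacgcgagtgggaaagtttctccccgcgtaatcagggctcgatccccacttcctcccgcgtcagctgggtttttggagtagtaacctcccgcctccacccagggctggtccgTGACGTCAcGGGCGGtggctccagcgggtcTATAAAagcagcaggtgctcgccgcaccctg
Btc: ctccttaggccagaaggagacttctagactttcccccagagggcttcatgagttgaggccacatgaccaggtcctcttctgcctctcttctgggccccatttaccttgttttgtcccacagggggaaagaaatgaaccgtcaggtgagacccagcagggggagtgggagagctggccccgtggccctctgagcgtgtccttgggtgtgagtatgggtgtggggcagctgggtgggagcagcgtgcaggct
Of the 10 members, 7 had an entry in the RefSeq promoter table, and Ereg, Hbegf and Erbb3 had none. Searched on both strands were the cAMP response element TGACGTCA, the AP-1 site TGACTCA, the TATA box TATAAA and the GC box GGGCGG. The Areg window held the cAMP response element with its first base 61 bases before the start, the GC box at 52 and the TATA box at 31, whereas the Btc window held none of the 4. Over 32851 mouse promoter windows of this length, 1.55% held the cAMP response element, 4.46% the AP-1 site, 12.4% the TATA box and 32.7% the GC box. Of the other members with an entry, Epgn matched the TATA box and Tgfa and Egfr the GC box. These matches describe letters in a window and not binding.

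Epgn, encoding epigen, was also a minor transcript, at 0.317 to 3.75 CPM or 6 to 53 reads. Its groups overlapped except in the Balb/c knockout contrast, where 0.317 and 2.19 CPM lay below 2.21 and 3.67 CPM. Egf itself was read 9 to 28 times per library, at 0.745 to 2.21 CPM. It was 1.25 and 0.745 CPM in NSG wild type against 1.61 and 1.49 CPM in NSG knockout, and 2.21 and 1.94 CPM in Balb/c wild type against 0.793 and 1.24 CPM in Balb/c knockout. The knockout libraries lay above wild type in NSG and below it in Balb/c, but at such counts no Egf contrast passed (log2 fold change 0.62, SE 0.48 in NSG).

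Tgfa, which encodes the EGFR ligand TGF-alpha (chr6:86195223-86275719, plus strand), was the ligand with the widest difference between hosts. It was at 61.4 and 42.1 CPM in NSG wild type and 46.1 and 69.0 CPM in NSG knockout, but only 13.2 and 19.9 CPM in wild type and 3.54 and 9.63 CPM in knockout of Balb/c hosts. Every NSG library lay above every Balb/c library. The log2 fold change of Balb/c against NSG was -1.64 (SE 0.45, adjusted p-value 0.0286 by edgeR) in wild type and -3.15 (SE 0.48, adjusted p-value 0.00283 by edgeR) in knockout, an 8.74-fold difference of the means in knockout. The wild-type call was lost when any 1 of its 4 libraries was left out, with adjusted p-values of 0.0699 to 0.150 and log2 fold changes of -1.90 to -1.35, while the knockout call held in all 8 such fits and in every other alternative run (adjusted p-values up to 0.0207). In NSG, knockout and wild type overlapped (log2 fold change 0.15, SE 0.43). Fibroblast markers were also lower in Balb/c, for 7 of 10 genes in wild type and 10 of 10 in knockout, and summed to 18100 to 34900 CPM in NSG and 4250 to 13400 CPM in Balb/c. Proliferation markers were lower for 10 of 10 genes in both labels (737 to 1200 CPM in NSG and 276 to 446 CPM in Balb/c). The summed keratinocyte markers, in which Sbsn had the largest share, were lower too. Of the 8 keratinocyte genes, 4 were lower and 2 higher in wild type, and 6 were lower and 2 higher in knockout. Their part in the Tgfa difference was not tested.

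Hbegf, encoding heparin-binding EGF-like growth factor (chr18:36504927-36515805, minus strand), varied least among the members, with an SD of 0.40 in log2 CPM over the 8 libraries. It was at 175 and 152 CPM in NSG wild type, 118 and 75.1 CPM in NSG knockout, 120 and 144 CPM in Balb/c wild type and 172 and 154 CPM in Balb/c knockout. Knockout lay below wild type in NSG (log2 fold change -0.76, SE 0.24, edgeR adjusted p-value 0.263) and above it in Balb/c (0.31, SE 0.23), without overlap in either. Knockout tumors had more Hbegf in Balb/c than in NSG, at a log2 fold change of 0.76 (SE 0.24, adjusted p-value 0.0431 by edgeR). This call was marginal, being lost in 7 of 8 fits that left out 1 library and with the cell line as a block (adjusted p-value 0.0686), in a fit of these 2 groups alone (0.127) and with total-count scaling (0.58, adjusted p-value 0.0654). The summed macrophage markers separated the same groups in the same direction as Hbegf. They were lower in NSG knockout than in NSG wild type for 10 of 12 genes, higher in Balb/c knockout than in Balb/c wild type for 11, and higher in Balb/c than in NSG knockout for 10, and their part in the Hbegf difference was not tested.

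Among the receptors, Egfr, the receptor for all 7 ligands (chr11:16752203-16918158, plus strand), was at 84.9 and 117 CPM in NSG wild type and 172 and 127 CPM in NSG knockout. In Balb/c it was at 86.9 and 66.2 CPM in wild type and 52.3 and 33.7 CPM in knockout. Knockout libraries lay above wild type in NSG and below it in Balb/c, without overlap. In NSG the fitted log2 fold change was 0.56 (SE 0.28, adjusted p-value 0.407 by edgeR). Between hosts, Egfr was 3.47 times higher in NSG among knockout tumors, with a log2 fold change of Balb/c against NSG of -1.79 (SE 0.29, adjusted p-value 0.0035 by edgeR), a call that held in all 8 fits leaving out 1 library, with adjusted p-values of at most 0.0211 over all alternatives. Among wild-type tumors the change was -0.40. Fibroblast markers, such as Pdgfra and the collagen gene Col1a1, moved the same way, summing to 34900 and 30500 CPM in NSG knockout and 11800 and 4250 CPM in Balb/c knockout with 10 of 10 genes lower in Balb/c. Col3a1 alone gave 20900 and 16800 CPM of the NSG knockout sums, and the part of fibroblasts in the Egfr difference was not tested. Relative to the summed epithelial markers of the same library, the Egfr levels of the knockout tumors overlapped between hosts.

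Erbb2, the receptor without a ligand of its own (chr11:98412470-98437716, plus strand), was at 21.2 and 26.7 CPM in NSG wild type, 49.4 and 40.1 CPM in NSG knockout, 7.39 and 12.7 CPM in Balb/c wild type and 5.50 and 22.0 CPM in Balb/c knockout. Every NSG library exceeded the Balb/c libraries of the same label. The log2 fold change of Balb/c against NSG was -1.25 (SE 0.56, adjusted p-value 0.122 by edgeR) in wild type and -1.71 (SE 0.56, adjusted p-value 0.0509 by edgeR) in knockout, so that neither passed. The knockout value passed with total-count scaling (-1.90, adjusted p-value 0.0313), with DESeq2 (0.00683), without the filter (0.00874), without the Balb/c clone 69 library (-3.02, adjusted p-value 0.00188), narrowly with DESeq2's size factors in edgeR (0.05 after rounding), and with the clones crossed in the line block (0.00914, an alternative added after seeing the data). Over all alternatives its adjusted p-value ran up to 0.149. The wild-type value passed in a fit of the 2 groups alone (-1.18, adjusted p-value 0.0184) and without either Balb/c knockout library (0.017 and 0.0118).

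Erbb3, the neuregulin receptor that partners ERBB2 (chr10:128567523-128589652, minus strand), had the largest knockout difference of the members in NSG. It was at 8.45 and 18.7 CPM in NSG wild type and 93.3 and 46.2 CPM in NSG knockout, and in Balb/c hosts at 16.1 and 46.2 CPM in wild type and 25.0 and 99.1 CPM in knockout. The groups did not overlap in NSG and did in Balb/c. The NSG log2 fold change was 2.37 (SE 0.77, adjusted p-value 0.273 by edgeR), not past the threshold, and it stayed between 1.77 and 3.04 when libraries were left out in turn. The epithelial marker sum moved with it: 1220 and 1640 CPM in NSG wild type and 3630 and 2400 CPM in NSG knockout, with all 10 genes higher in knockout without overlap. The NSG order parental, vCas9, clone 69, clone 54 was shared by Egfr, Erbb2, Erbb3 and that sum, and in Balb/c Erbb2 and the sum shared the order clone 54, parental, vCas9, clone 69. Whether epithelial content accounts for any of this was not tested.

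**Figure D2:**
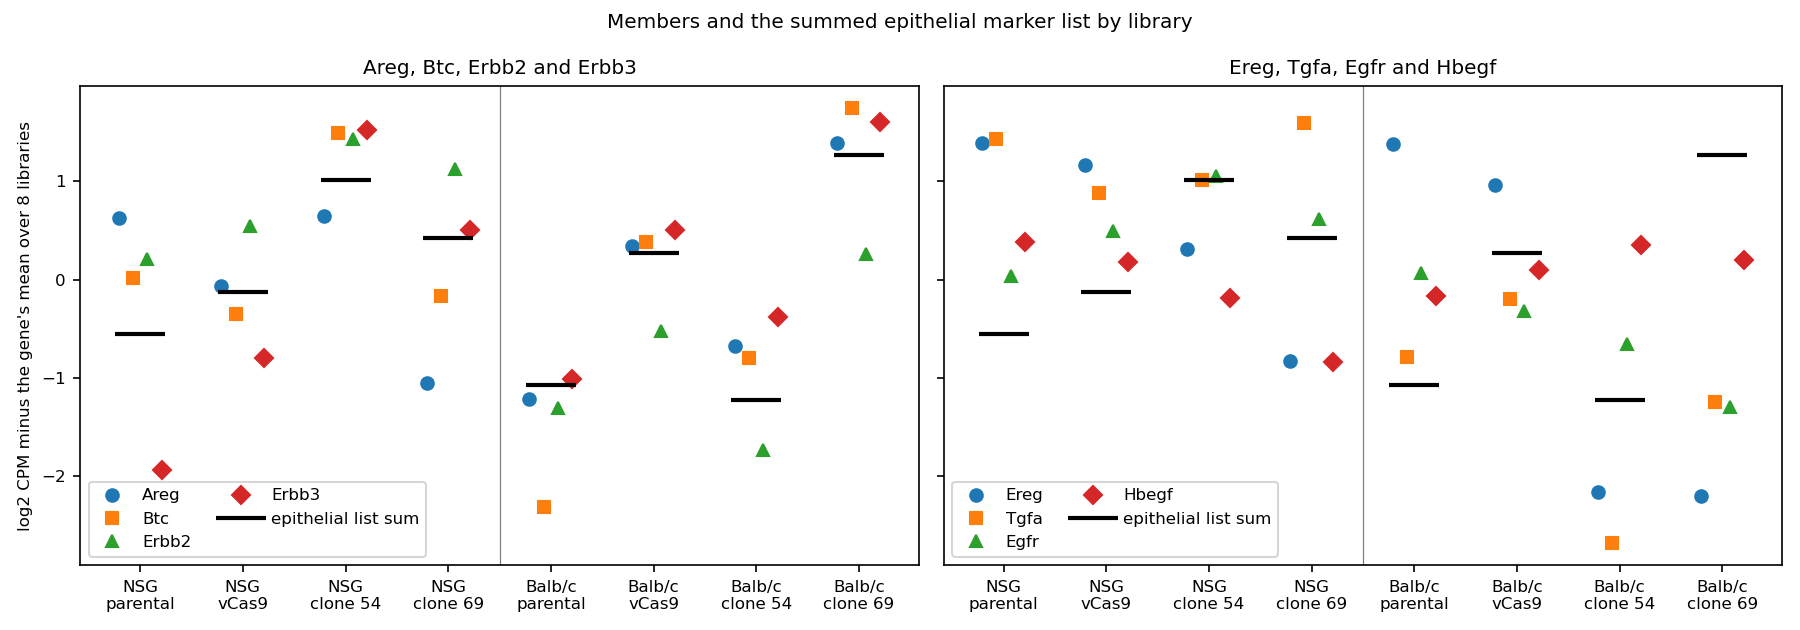
Log2 CPM of 8 members minus each gene's mean over the 8 libraries, 1 point per library, with a black bar for the summed epithelial marker list treated the same way. In Balb/c, Erbb3 at 16.1, 46.2, 25.0 and 99.1 CPM has its highest values in the libraries where the epithelial sum of 854, 2170, 767 and 4340 CPM is highest (parental, vCas9, clone 54 and clone 69 in turn), whereas Ereg is low in both clones.

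Counted over the family, no member passed the edgeR threshold for knockout against wild type in NSG, where 0.0131% of the 15310 genes tested did. At an unadjusted p-value under 0.05 there were 3 members, namely Hbegf, Erbb3 and Ereg, against 14.0% of all genes. DESeq2 called 1 member, Ereg, among 339 genes in all. Ereg was chosen on these groups, so nothing is read from its place in either count. Knockout and wild-type libraries did not overlap for 6 members, with Egf, Egfr, Erbb2 and Erbb3 higher and Ereg and Hbegf lower, against 52.6% of all genes. The median log2 fold change was 0.36 over the members and 0.01 over all genes. Ereg enters this median and the count of 6 as well, and nothing is read from its part in them.

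Between hosts, 1 member was called in wild type (Tgfa, lower in Balb/c), where 31.5% of all genes were called, and 4 were counted in knockout, where 31.1% were. The latter were Tgfa and Egfr, lower in Balb/c, Hbegf, higher, and Ereg, whose place in that count comes from how it was chosen. A share near the background is no result about the family. Libraries did not overlap for 4 members in wild type, against 76.4% of all genes, and for 6 in knockout, against 64.2%. Member medians of the log2 fold change were -0.27 in wild type and -0.83 in knockout, beside -0.08 and 0.02 over all genes. Ereg enters both medians and is among the 6 in knockout, so these values are descriptions and no result about the family.

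In the contrast by which Ereg was picked, knockout against wild type in Balb/c, the edgeR count past the threshold was 1 member, Ereg, beside 0.176% of all genes, and nothing is read from it because the choice set it. Libraries did not overlap for 6 members, with Hbegf higher and Ereg, Epgn, Tgfa, Egf and Egfr lower, against 62.2% of all genes. The place of Ereg among these 6 also comes from the choice. Hbegf, Egf and Egfr had the opposite order in NSG, also without overlap, as did 16.3% of all genes. The log2 fold changes of the members other than Ereg were between -1.35 (Tgfa) and 1.33 (Btc), and those of Areg, Btc, Erbb2 and Erbb3 changed sign without the Balb/c clone 69 library (-0.43, -0.42, -0.87 and -0.31). For the host difference of the knockout effect 0 of 10 members passed in edgeR, where 0% of all genes did, and the unadjusted p-value was under 0.05 for 5 members (Hbegf, Tgfa, Egf, Egfr and Ereg) and for 22.5% of all genes. Ereg was chosen on groups that enter this difference, so nothing is read from its place in the count. The contrasts with wild type and with the other host share libraries, so their values are set side by side in the plot of differences and not correlated.

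**Figure D3:**
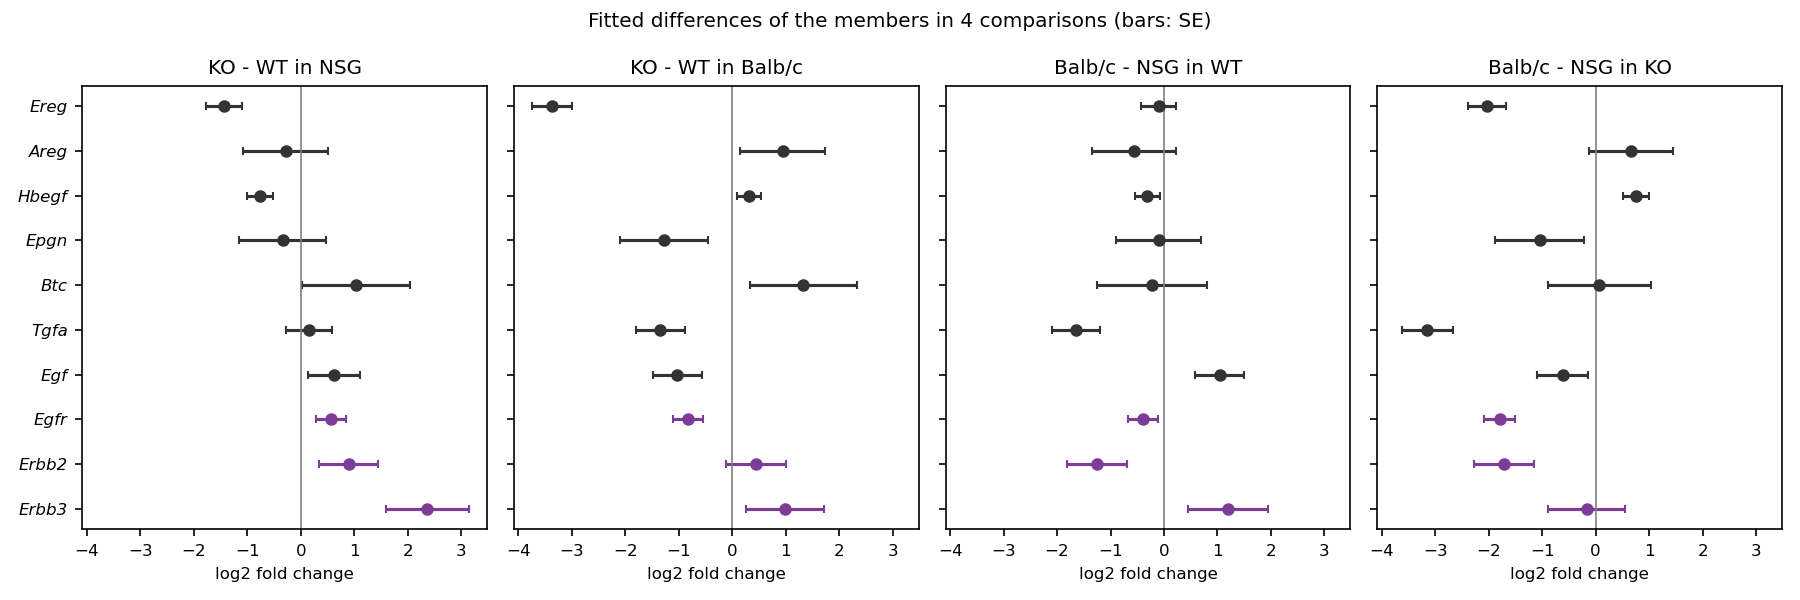
Log2 fold change of each member in each comparison, with bars of 1 SE, ligands in grey and receptors in purple. Ereg lies at -1.43 and -3.37 for knockout against wild type in NSG and Balb/c, and Tgfa at -1.64 and -3.15 for Balb/c against NSG in wild-type and knockout tumors.

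Epgn, Ereg, Areg and Btc lie in a 376 kb stretch of chromosome 5, beside a group of CXC chemokine genes, so the neighbours of Ereg were described as well. Of 18 genes reaching into the 500 kb on either side, 16 passed the filter, and 12 of these were not ligands of the family. In NSG knockout tumors none of these 12 passed the threshold, the lowest adjusted p-value being 0.080 for Pf4, platelet factor 4 (edgeR log2 fold change -2.33, SE 0.27). Cxcl1 had log2 fold changes of -1.31 (SE 0.31) in NSG and -1.64 in Balb/c, Cxcl5 -1.71 (SE 0.73) and -1.27, and Ppbp -2.50 (SE 0.53) and -1.79. Cxcl2 had -0.61 (SE 0.51) and -1.14 and Cxcl3 -0.79 (SE 0.80) and -1.97, whereas Cxcl15 had 2.85 (SE 1.09) and 1.56. Mthfd2l, a mitochondrial folate enzyme gene between the chemokines and Epgn, had -0.06 and -0.60. Knockout libraries lay below wild type without overlap in both hosts for Cxcl1 and Ppbp, whereas knockout and wild type overlapped in NSG for Cxcl2 and Cxcl3 and in Balb/c for Cxcl5 and Cxcl15. The Pf4 estimate in Balb/c was 0.85. Rassf6 on the chemokine side had 1.06 in Balb/c, with overlap, and Parm1 beyond Btc had 0.66 and 0.40.

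**Figure D4:**
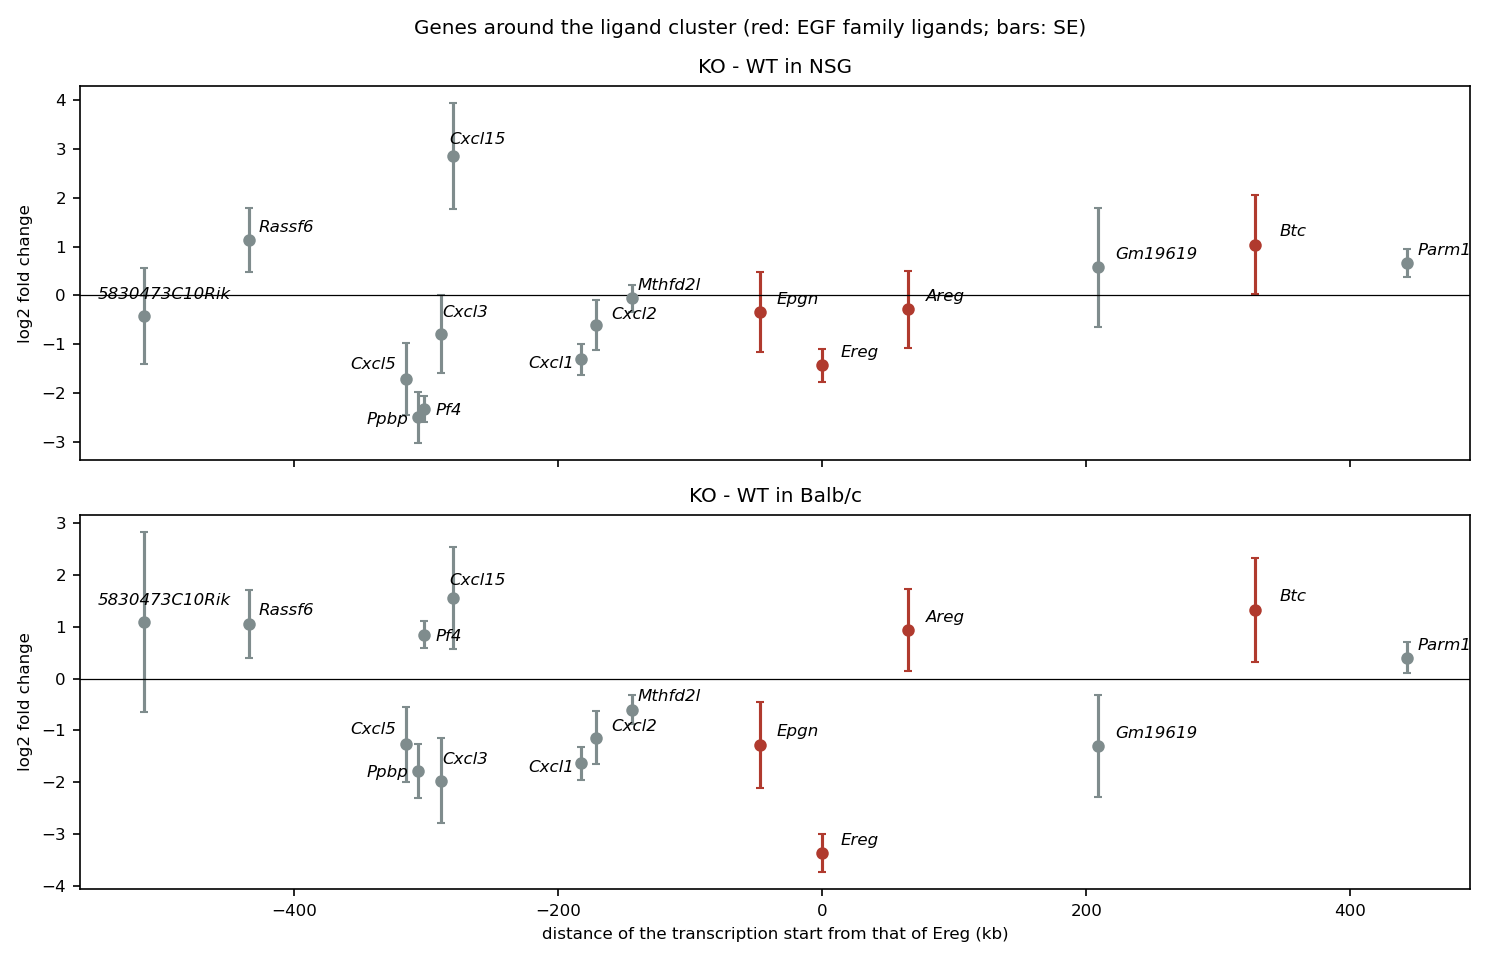
Log2 fold change of knockout against wild type (bars, 1 SE) for the genes around the ligand cluster, against the distance of their transcription start from that of Ereg in kb, in NSG (top) and Balb/c (bottom). Ereg at -1.43 and -3.37 stands between Epgn and Areg, which lie at -0.34 and -0.28 in NSG and at -1.28 and 0.94 in Balb/c.

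Between hosts, 3 of the 12 neighbours were lower in Balb/c among wild-type tumors and, among knockout tumors, 3 were lower and 1 was higher, counts close to what 31.5% and 31.1% of all genes give. Cxcl1 was lower in both, with log2 fold changes of -0.99 (edgeR adjusted p-value 0.0446) and -1.31 (0.0164), and so was Mthfd2l, with -0.88 (0.0443) and -1.42 (0.00814). Pf4 was lower in Balb/c among wild-type tumors (-1.28, edgeR adjusted p-value 0.0109) and higher among knockout tumors (1.91, 0.00208). Parm1 was lower among knockout tumors (-1.15, 0.0217).

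Of the other 55 genes listed for the pathway, 53 were tested. Between NSG knockout and wild type none passed in edgeR (0.0131% of all genes), 15 had an unadjusted p-value under 0.05 (14.0% of all genes), and DESeq2 called 6, among 339 genes in all. Between Balb/c knockout and wild type 1 passed in edgeR, beside 0.176% of all genes. It was Phlda1, at a log2 fold change of -1.50 (SE 0.19, adjusted p-value 0.045) and of -0.53 (SE 0.18) in NSG. Its knockout libraries lay below wild type without overlap in both hosts. A fit of those Balb/c groups alone called 0 genes in all. Between hosts, 14 were higher and 6 lower in Balb/c among wild-type tumors, and 17 were higher and 10 lower among knockout tumors. Over all genes 31.5% and 31.1% were called in these comparisons, and the counts of the separate lists below stand beside the same shares. The wild-type count of 20 fell to 4 without either NSG wild-type library and to 9 without either Balb/c wild-type library, and the knockout count of 27 fell to 16 without the NSG clone 69 library. The calls over all genes fell with them, from 4825 to between 858 and 1482 in wild type and from 4757 to 2461 in knockout. With the cell line as a block the counts were 11 (6 higher) and 17 (10 higher), among 2073 and 2878 genes in all. The split by direction moved with the fit. Higher calls were 10 of 20 and 13 of 25 with total-count scaling (5220 and 4707 genes in all). They were 18 of 24 and 18 of 28 with DESeq2's size factors in edgeR (4621 and 4739). With the 2 groups alone they were 19 of 30 and 6 of 12 (6838 and 2450). No direction of the pathway is read from the split. The median log2 fold change over the 53 genes was -0.25 in NSG knockout, -0.05 between hosts in wild type and 0.23 between hosts in knockout, beside 0.01, -0.08 and 0.02 over all genes. Genes named below are calls of the main fit. Every wild-type call higher in Balb/c among them was lost in the fit without the parental NSG library.

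The remaining ligands and receptor of the ERBB family were tested in 4 of 5 cases, and none was called between hosts or in NSG. Nrg1, the neuregulin that binds ERBB3 and ERBB4, was at 40.6 and 52.5 CPM in NSG wild type, 26.2 and 26.0 CPM in NSG knockout, 54.2 and 74.1 CPM in Balb/c wild type and 44.5 and 31.2 CPM in Balb/c knockout. It was lower in knockout in both hosts without overlap, with log2 fold changes of -0.83 (SE 0.24, adjusted p-value 0.25 by edgeR) in NSG, which did not pass, and, as a description, -0.76 (SE 0.24) in Balb/c. Erbb4, the receptor that epiregulin and HB-EGF share with EGFR, was nearly unread, at 3 to 28 counts per library.

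Of the genes for ligand shedding, 5 of 6 were tested. Rhbdf1 and Rhbdf2 encode the iRhom partners that carry ADAM17 to the cell surface, and they changed in opposite directions. Rhbdf1 was lower in Balb/c, by edgeR log2 fold changes of -1.31 (SE 0.24, adjusted p-value 0.00801) in wild type and -2.09 (SE 0.25, 0.00111) in knockout, and Rhbdf2 was higher, by 0.86 (SE 0.18, 0.0132) and 1.18 (SE 0.19, 0.0033). Adam17 itself was higher in Balb/c among knockout tumors (0.87, SE 0.18, adjusted p-value 0.0104), and its change among wild-type tumors was 0.41 (adjusted p-value 0.117).

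Of 18 genes that relay the signal, 6 were higher and 1 lower in Balb/c among wild-type tumors, and 4 were higher among knockout tumors. Stat3, the transcription factor activated by the receptors and by cytokines, was higher in both, by 1.24 (SE 0.24, adjusted p-value 0.00943 by edgeR) and 0.85 (SE 0.24, 0.0294). The adaptor gene Grb2 rose by 0.53 in wild type and 0.87 in knockout. The kinase gene Braf rose by 1.59 in wild type and was at 0.74 in knockout (adjusted p-value 0.0537 by edgeR), and the adaptor gene Gab1 rose by 1.16 in knockout and was at 0.52 in wild type (adjusted p-value 0.0567 by edgeR).

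Of 12 feedback inhibitors, 2 were higher and 2 lower among wild-type tumors and 4 higher and 5 lower among knockout tumors. Spry1, an inhibitor of receptor signalling to ERK, was at 27.0 to 63.5 CPM in NSG and 5.61 to 11.0 CPM in Balb/c and fell by 2.04 and 2.33 on the log2 scale (edgeR adjusted p-values 0.00634 and 0.00241). Socs3, a cytokine feedback gene, rose by 1.28 in wild type and 1.40 in knockout. Dusp5, an ERK phosphatase gene, rose by 1.59 in knockout and was at 0.83 in wild type (adjusted p-value 0.0565 by edgeR). Lrig1, a negative regulator of ERBB receptors, fell by 1.76 in knockout and was at -1.03 in wild type (adjusted p-value 0.0616 by edgeR). For the difference of the host changes between the labels, 0 of the 12 inhibitors passed in edgeR, where 0% of all genes did. An unadjusted p-value under 0.05 was found for 1 of them, against 22.5% of all genes.

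Among 14 genes that ERK signalling commonly induces, 5 were higher and 2 lower in wild type and 7 higher and 4 lower in knockout. Etv4, an ETS factor gene, fell by 2.34 (SE 0.35) and 3.39 (SE 0.38) on the log2 scale, with edgeR adjusted p-values of 0.00463 and 0.000947. Ccnd1, encoding cyclin D1, fell by 1.80 and 2.14, from 170 to 236 CPM in NSG to 40.1 to 66.9 CPM in Balb/c. The immediate early genes Egr1 (2.15 in wild type and 1.25 in knockout) and Fos (1.17 and 1.41) rose in both labels, as did the urokinase receptor gene Plaur (1.44 and 1.49). The list therefore did not move one way. Proliferation markers, at 737 to 1200 CPM in NSG and 276 to 446 CPM in Balb/c, were lower in Balb/c for 10 of 10 genes without overlap in both labels, and T cell markers were at 6.31 to 12.1 CPM in NSG and 481 to 552 CPM in Balb/c. Neutrophil markers were higher in Balb/c among wild-type tumors for 11 of 12 genes (8390 and 6760 against 1740 and 2410 CPM). Macrophage markers were higher in Balb/c among knockout tumors for 10 of 12 genes (21300 and 8840 against 3480 and 4110 CPM). Among wild-type tumors 7 macrophage genes were lower and 2 higher. The part of cell composition in these host differences was not tested.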

How the data were processed

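RNA was sequenced in 8 libraries, from tumors of 4 lines in 2 hosts. The deposited values are raw gene counts, 1 library per table. The submitters' processing notes name cutadapt 1.13, STAR, HTSeq 0.6.1p1 and DESeq2 and the builds mm10 and hg19, without their roles. Annotation, strand setting, filters and pooling are not given in the sources used here, so reads of overlapping and antisense genes cannot be told apart. GENCODE M21 (GRCm38) supplied positions and exon lengths, and symbols were found for 24942 identifiers.

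Counts were fitted in R 4.3.3 with edgeR 4.0.16 (TMM, filterByExpr, glmQLFit, glmQLFTest) over 15310 genes, with 4 group means, 4 residual degrees of freedom and Benjamini-Hochberg adjustment over all genes (threshold 0.05). The common biological coefficient of variation was 0.244. CPM used TMM-scaled totals. Host changes are Balb/c against NSG. The fit was tested on simulated data, and the outcome is not given here. Alternatives were DESeq2 1.42.0, other scalings, no filter, fewer groups, a cell line block and leaving out each library.

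The same 4 lines were grown in both hosts, as the titles say, which pairs libraries by line. The line differences correlated between hosts at 0.09 for wild type and -0.35 for knockout. The members and lists were chosen with earlier results of these data known. Named were all members, the 5 genes most like Ereg, of which 1 is not reported here (prior count 2, mean of at least 5 CPM, SD of at least 0.5), neighbours within 500 kb, and per list and comparison up to 4 called genes with the largest change and no overlap.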

Additional observations from a re-analysis of the deposited data

Results flagged for a closer look

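For 3 members the knockout libraries lay on opposite sides of the wild-type libraries in the 2 hosts, without overlap in either, as did 16.3% of all genes. For Hbegf the knockout log2 fold change in Balb/c exceeded that in NSG by 1.07 (SE 0.33). For Egf the Balb/c change minus the NSG change was -1.66 (SE 0.66), at 9 to 28 reads per library. For Egfr it was -1.39 (SE 0.40). By edgeR's interaction test 0 of the 10 members passed after adjustment over all genes, as did 0% of the 15310 genes. At an unadjusted p-value under 0.05 there were 5 members, Ereg among them, against 22.5% of all genes, and DESeq2 called 2, among 968 genes in all. These differences contain the Balb/c contrast that led to the choice of the family and are descriptions.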

How the results depend on the processing

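Precision is limited by 2 libraries per group, each a different line, by counts under 100 for Epgn, Btc and Egf, and by clones whose difference correlated at -0.35 between hosts across all genes. Over all genes, total-count scaling moved the median log2 change between hosts from -0.08 to -0.24 in wild type and from 0.02 to -0.17 in knockout.

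Counts of members past the threshold changed as follows. In NSG knockout, where the main count was 0, DESeq2 and the fit without the filter gave 1 each, which was Ereg, chosen on these groups, and for the other pathway genes they gave 6 and 2. Over all genes they called 339 and 133, against 2 with edgeR and the filter. The wild-type host comparison gave 2 members instead of 1 when only its groups were fitted, among 6838 genes in all instead of 4825. In the knockout host comparison 12 other pathway genes, not 27, were called in that fit, among 2450 genes instead of 4757. The Balb/c knockout contrast gave 3 members with DESeq2, 3 without the filter and 0 with its groups alone, instead of 1, while 2161, 1774 and 0 genes were called in all instead of 27. The host difference of the knockout effect gave 2 with DESeq2 and 2 without the filter, instead of 0, among 968 and 674 genes in all. The causes were not tested.

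Pairing the hosts by cell line (replicate block), the host comparisons called 1 member in wild type and 3 in knockout, and 11 and 17 other pathway genes, among 2073 and 2878 genes in all. The member lost was Hbegf, and the block called no member for the host difference. Crossing the 2 clones in the pairing, an alternative chosen after seeing the data, called 5 members, 29 pathway genes and 5436 genes in all in knockout. No paired analysis was possible within a host because the wild-type and knockout lines differ.

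Leaving out 1 library at a time gave 0 to 0 members and 0 to 0 pathway genes in NSG knockout, 0 to 2 and 4 to 27 in the wild-type host comparison, 3 to 5 and 16 to 24 in the knockout host comparison, 0 to 3 members in Balb/c knockout and 0 to 2 for the host difference. Btc in the knockout host comparison changed sign, from 0.07 to -0.09 with total-count scaling, -0.19 with the replicate block and -0.11 with crossed clones. Leaving out libraries also changed signs for Areg (-1.37 to 0.33), Epgn (-1.29 to 0.24), Btc (-0.02 to 1.64) and Tgfa (-0.17 to 0.45) in NSG knockout, Ereg (-0.32 to 0.16), Areg (-1.47 to 0.02), Epgn (-0.45 to 0.21) and Btc (-2.07 to 0.53) between hosts in wild type, and Areg (-0.71 to 1.75), Btc (-1.68 to 1.12) and Erbb3 (-1.47 to 0.48) between hosts in knockout, none of which was called. In the Balb/c knockout contrast they changed for Areg (-0.43 to 1.83), Btc (-0.42 to 3.16), Erbb2 (-0.87 to 1.02) and Erbb3 (-0.31 to 1.85), and in the host difference for Areg (-0.15 to 2.31), Epgn (-2.83 to 0.02), Btc (-1.45 to 2.12) and Erbb2 (-1.77 to 0.11).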

Other observations

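The members were also set against the epithelial markers of the same library, a view added after the data were seen. Per 1000 CPM of the summed epithelial list, Ereg was at 56.2 and 35.8 in NSG wild type, 8.97 and 6.14 in NSG knockout, 79.6 and 23.6 in Balb/c wild type and 7.59 and 1.31 in Balb/c knockout. Knockout lay below wild type in both hosts without overlap. In NSG this order follows from the CPM values, because Ereg was lower and the epithelial sum higher in knockout. Ereg was chosen on these groups, so nothing is read from its order on this scale. Erbb3, higher in NSG knockout by CPM, was at 6.92 and 11.4 in NSG wild type, 25.7 and 19.3 in NSG knockout, 18.8 and 21.3 in Balb/c wild type and 32.6 and 22.8 in Balb/c knockout, above wild type in both hosts. Erbb2 was at 13.6 to 17.4 in the 4 NSG libraries and 5.08 to 8.66 in the 4 Balb/c libraries, so that the hosts did not overlap. The Balb/c clones, at 5.50 and 22.0 CPM, were closer on this scale (7.18 and 5.08).

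Tgfa remained lower in Balb/c in both labels on this scale, at 12.7 to 50.3 in NSG and 2.22 to 15.4 in Balb/c, with no overlap within a label. Egfr changed order in NSG, being higher in knockout by CPM and lower relative to the epithelial sum (47.4 and 52.8 against 69.6 and 71.6). Between hosts the knockout tumors overlapped on this scale for Egfr (47.4 and 52.8 in NSG, 68.2 and 7.77 in Balb/c) and for Ereg (8.97 and 6.14, 7.59 and 1.31), whereas by CPM they did not. A ratio of this kind shows unequal change of the gene and the markers, and no test was made on it.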
